A study of Mus musculus with 12 samples.

Results

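Cadherins and protocadherins are calcium-dependent adhesion receptors. They were followed through 8 genes, Cdh2, Cdh11, Cdh13, Pcdh7, Pcdh17, Pcdh18, Pcdh19 and Fat1, taken by symbol from a table of 28004 genes. The 12 RNA sequencing libraries were made from mouse lung cells that were positive for 2 fluorescent reporters, Acta2-dsRed and Pdgfra-GFP, and had been sorted from dissociated whole lung. The stages were embryonic (E17.5) and postnatal day 3 (P3), day 7 (P7) and day 10 (P10), at 3 libraries each. Every library carries both reporters and no treatment is named, so stage was the only difference between groups in the labels. One reporter is named after Acta2, the gene of smooth muscle actin, and the other after Pdgfra, a receptor for platelet-derived growth factors. The title of the series places the study in Hippo pathway activity of mesenchymal cells during alveolar formation, and the stages span late gestation to the period when alveolar walls form. The labels do not say whether replicate libraries are from different animals, and p-values therefore reflect the spread between these samples alone, which may be technical.

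Classical cadherins bind their own kind on neighbouring cells through their outer domains and connect through catenins to the actin cytoskeleton. Cdh2 (N-cadherin) and Cdh11 (OB-cadherin) are cadherins of mesenchymal cells, and Cdh11 is known in fibroblasts and myofibroblasts. Cdh13 (T-cadherin) has no cytoplasmic tail, is held to the membrane by a lipid anchor and binds adiponectin. Pcdh7, Pcdh17, Pcdh18 and Pcdh19 are non-clustered protocadherins of the delta group, and several of that group recruit the actin-nucleating WAVE complex. Fat1 is a giant atypical cadherin related to the Drosophila Fat protein, which acts upstream of Hippo signalling and in planar polarity.

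At P10, Pcdh17 was lower and Pcdh7 higher than at E17.5, and their start regions are shown because the results turn on this pair. The sequences are RefSeq promoter entries of GRCm38.p6, which held 5 of the 8 genes, with the bases inside annotated exons left out. Capitals mark CCAAT on either strand, read here as ATTGG. The Pcdh17 stretch lies at chr14:84443313-84443562 on the plus strand, and the Pcdh7 stretch at chr5:57717831-57717966 on the plus strand.
Pcdh17: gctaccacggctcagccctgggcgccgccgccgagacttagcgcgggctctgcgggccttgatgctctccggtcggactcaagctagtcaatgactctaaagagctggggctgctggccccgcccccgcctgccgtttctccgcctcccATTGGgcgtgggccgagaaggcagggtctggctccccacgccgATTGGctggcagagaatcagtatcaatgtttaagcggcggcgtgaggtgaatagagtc
Pcdh7: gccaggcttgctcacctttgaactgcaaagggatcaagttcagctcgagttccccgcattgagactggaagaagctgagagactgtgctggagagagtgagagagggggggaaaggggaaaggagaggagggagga
The 250 bases of Pcdh17 held 2 CCAAT matches, and 33.8% of all 32851 RefSeq promoters held at least 1 in a window of that length. The 136 bases of Pcdh7 held 0, against 18.3% of promoters in the first 136 bases of each entry. Each entry begins 250 bases before its RefSeq start, so this window leaves out the bases nearest to that start. The Pcdh7 stretch is the same part of its own entry, but it ends where an annotated exon begins. GGGCGG, searched on both strands, matched 1 time in Pcdh17 and 0 times in Pcdh7, and occurred in 32.7% and 14.8% of all promoters at the respective lengths. TATAAA had 0 matches in both stretches, and so had the hexamer GGAATG and the palindrome CACGTG, which occur in 12.4%, 12.6% and 6.02% of all promoters at 250 bases. The GC content was 64.8% for Pcdh17, with 21 CpG dinucleotides, and 55.9% for Pcdh7, with 2. A match is a description of the letters and not a bound site, and its absence says only that these letters are not in the window.

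Levels are given as CPM, an estimated count relative to its library size, from the deposited estimated counts with TMM scaling. The low end of the deposited values falls with transcript length up to 800 nt, as a scaling by length gives. It is flat at 1 above that, and the longest coding transcripts of the 8 genes have 3785 to 14814 nt. Levels of different genes were read as per-length values on this scale, and a value is not a number of reads. The scaling is not named in the sources used here, so rankings between genes rest on this reading. The library totals ranged from 13328623 to 18740591 estimated counts, and 1 estimated count was worth between 0.0498 and 0.0973 CPM. A difference was called at an adjusted p (Benjamini-Hochberg, edgeR's quasi-likelihood test over all 16827 tested genes) below 0.05. Pcdh19 did not pass the filter on low values, so 7 of the 8 genes were tested. Cdh13 passed through its postnatal libraries, with 0 of 3 libraries at the filter level of 0.598 CPM (before TMM scaling) at E17.5, and Cdh2 reached that level in 2, 2, 1 and 1 of 3 libraries at E17.5, P3, P7 and P10.

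The reporter genes and other cell markers moved with stage. Acta2 averaged 492 ± 182, 1025 ± 46.4, 822 ± 131 and 487 ± 166 CPM (SD, n = 3) at E17.5, P3, P7 and P10, and Pdgfra averaged 346 ± 71.9, 179 ± 24.1, 191 ± 25.5 and 221 ± 38.0. Both rank far above the epithelial and endothelial cadherins in these libraries, Cdh1 (at most 3.13 CPM) and Cdh5 (at most 17.4 CPM). Cdh1 and Cdh5 are single genes of longer lists, and other markers were higher. The epithelial list summed to 285 CPM in P3 replicate 3, where Pdgfra was at 165. In P10 replicate 1 the list summed to 60.3 CPM and Pdgfra was at 177. Several libraries stood apart. E17.5 replicate 2 had the highest share of short structural RNA genes (51.6%) and the lowest TMM factor (0.589), and P10 replicate 3 the lowest share (21.7%) and the highest factor (1.48). Endothelial markers summed to 14.3 CPM in P10 replicate 1, against 84.3 and 84.2 in replicates 2 and 3. In the same order, epithelial markers summed to 60.3, 275 and 250 CPM. Pericyte and vascular smooth muscle markers summed to 611, 384 and 432 CPM, and Acta2 was at 676, 364 and 420. In E17.5 replicate 1, Cdh2 and Cdh11 stood above the other 2 libraries of its stage. Of the list genes named further on, Pcdh11x, Pcdhac2, Pcdhga2, Pcdhga3, Fat4, Clstn2, Limd1, Ctnnd2, Notch3 and Tcf21 had their highest value there. A fall of each is given with and without this library. Pcdhb13, Ctnnal1, Vangl1, Col1a1 and Vim were highest there among the E17.5 libraries.

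**Figure D1:**
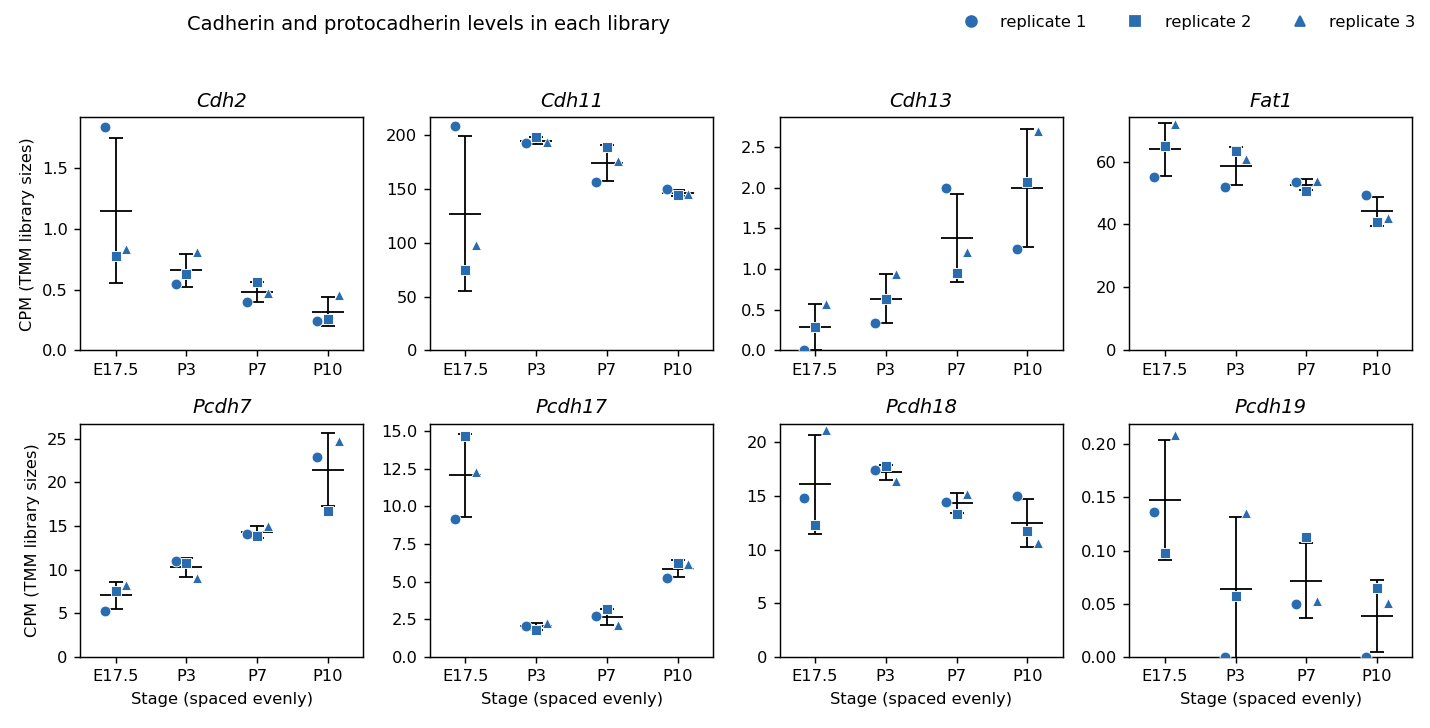
Level of each of the 8 genes in CPM (vertical axes, linear from 0, each with its own range) at the 4 stages, 1 marker per library, with the mean (horizontal bar) ± SD of 3 libraries. Pcdh17 falls from E17.5 to P3 and is higher again at P10, Pcdh7 is higher at each later stage, and Cdh11 at E17.5 is spread from 74.3 to 209 CPM.

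Cdh11 and Fat1 were the most abundant of the 8 genes in each of the 12 libraries. Cdh11 made up between 42.4% and 70.8% of their summed level at E17.5 and between 61.4% and 69.8% after birth, and Fat1 between 18.2% and 37.2% over all libraries. The summed level of the 8 genes was 228 ± 61.4, 284 ± 8.80, 260 ± 14.7 and 233 ± 10.8 CPM from E17.5 to P10. Below these 2 genes, Pcdh18, Pcdh7 and Pcdh17 lay between 1.77 and 24.8 CPM in single libraries, while Cdh2 and Cdh13 reached at most 2.69 CPM and Pcdh19 at most 0.209. The order among the middle 3 changed with stage. Pcdh17 stood above Pcdh7 in all 3 libraries at E17.5 and below it in all 9 postnatal libraries.

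Of the 7 tested genes, 4 differed somewhere across the 4 stages, where 32.1% of all tested genes did. Between P3 and E17.5, 1 of 7 was called, 0 higher and 1 lower, where 25.1% of all tested genes were called, 13.1% higher and 12% lower. Between P7 and P3, 0 of 7 were called by edgeR, DESeq2, limma-voom and limma-trend, and 1 had an unadjusted p below 0.05. In that comparison 0.00594% of all tested genes were called, 0% higher and 0.00594% lower. Between P10 and P7, 1 of 7 was called, in the higher direction, against a background of 3.64%, with 1.4% higher and 2.25% lower. Between P10 and E17.5, 5 of 7 were called, 2 higher and 3 lower, against a background of 18.3%, with 8.79% higher and 9.5% lower. Of the 2 higher, Cdh13 passed the low-value filter through its postnatal libraries, with 0 of 3 at the filter level at E17.5. Of the 3 lower, Cdh2 had 2 of 3 libraries at that level at E17.5 and 1 of 3 at P10. The median log2 fold change of the 7 was 0.09, -0.16, -0.20 and -0.37 in these comparisons, in the order given, and that of all tested genes was -0.05, 0.01, 0.01 and 0.00.

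**Figure D2:**
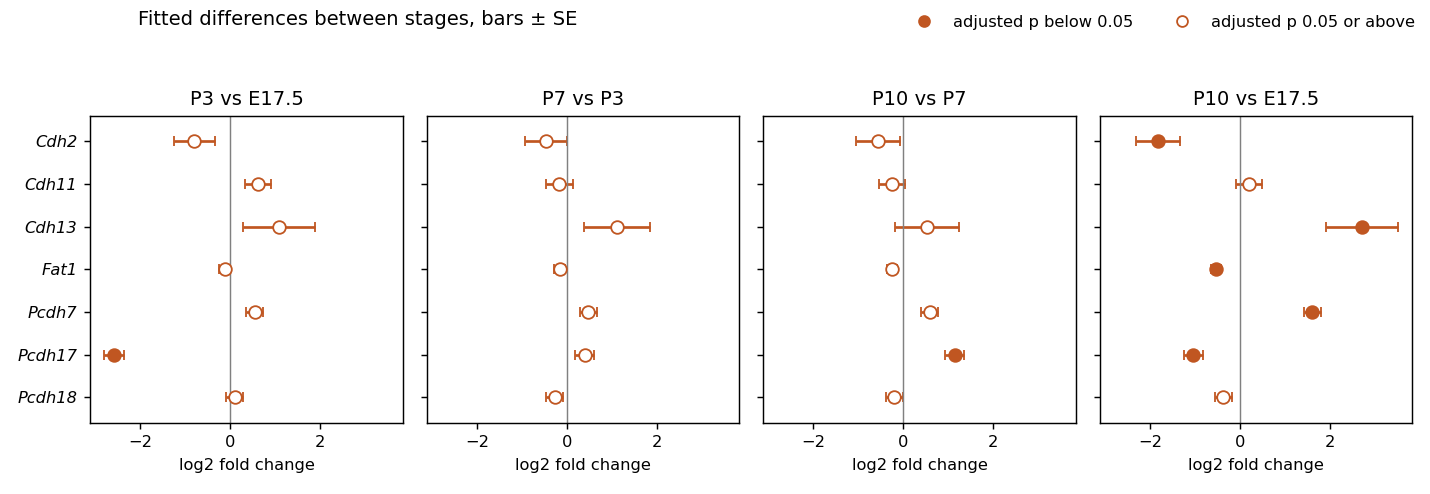
Fitted log2 fold change (horizontal axes) of the 7 tested genes in 4 comparisons of stages, with bars of ± 1 SE and filled points for an adjusted p below 0.05. Pcdh17 is the only filled point in P3 vs E17.5 (-2.58) and in P10 vs P7 (1.14), and 5 of 7 points are filled in P10 vs E17.5.

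Pcdh17, a delta protocadherin best known from synapse formation, had the largest fall across birth among the 7 tested genes. The gene lies on chromosome 14, 84443563 to 84539002, plus strand. At E17.5 it was at 9.17, 14.7 and 12.3 CPM in replicates 1, 2 and 3, and at P3 at 2.05, 1.77 and 2.23 CPM. The stages did not overlap: the highest P3 library was far below the lowest E17.5 library. The fitted log2 change was -2.58 (SE 0.22, adjusted p = 4.38e-05), which is 5.97-fold lower at P3. In bulk samples, fewer cells of a type and less RNA per cell cannot be told apart. This fall stayed called in every alternative that was run, with log2 fold changes between -2.74 and -2.39.

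Pcdh17 was then low through P7 and higher at P10. It was at 2.69, 3.16 and 2.10 CPM at P7, where the libraries overlapped those at P3 (log2 fold change 0.40, SE 0.22, adjusted p = 0.434). At P10 it was at 5.22, 6.21 and 6.15 CPM, above every P3 and P7 library and below every E17.5 library. From P7 to P10 it rose by 1.14 on the log2 scale (SE 0.21, adjusted p = 0.0226), a call that was lost with column totals as library sizes (1.20, adjusted p = 0.160) and without any 1 of P7 replicates 1, 2 and 3 (adjusted p = 0.0827, 0.0543 and 0.0925) or P10 replicates 2 and 3 (0.0865 and 0.0884), while the log2 fold change lay between 1.01 and 1.30 in all alternatives. Compared with E17.5, P10 had a lower level, with a log2 value of -1.04 (SE 0.21, adjusted p = 0.00583), and column totals were the single alternative that lost this call (-0.49, adjusted p = 0.260).

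Of 8 markers of pericytes and smooth muscle of vessels, 4 fell from E17.5 to P3 (Cspg4, Rgs5, Notch3 and Lamc3), where 12% of all tested genes did, and Trpc6, Mcam, Kcnj8 and Myh11 did not pass. From P7 to P10 1 of the 8, Rgs5, rose, where 1.4% of all tested genes did. Rgs5, a regulator of G-protein signalling used as a pericyte marker, averaged 72.5 ± 13.6, 15.3 ± 0.991, 27.8 ± 6.44 and 68.2 ± 18.9 CPM. It fell from E17.5 to P3 (log2 fold change -2.24, SE 0.24, adjusted p = 0.000148) and rose from P7 to P10 (1.29, SE 0.23, adjusted p = 0.0198). The call of this rise was lost with column totals (1.40, adjusted p = 0.0838) and without any 1 of the 3 P7 libraries or P10 replicates 2 and 3 (adjusted p between 0.0614 and 0.0828). Cspg4, the proteoglycan NG2, averaged 31.7 ± 6.60 CPM at E17.5 and 5.12 ± 0.349, 4.95 ± 0.431 and 5.32 ± 0.417 afterwards, without a return at P10. Lamc3 and Notch3 fell by -3.91 and -1.18 on the log2 scale at P3. They were still lower at P10 than at E17.5 (-3.60, adjusted p = 0.000355, and -1.21, adjusted p = 0.00800). With column totals both Notch3 calls were lost (adjusted p = 0.0885 and 0.155). Without E17.5 replicate 1 its P3 value was -0.89 (adjusted p = 0.0237). The pericyte list summed to between 543 and 921 CPM at E17.5, 608 and 692 at P3, 570 and 677 at P7 and 384 and 611 at P10, most of it Myh11, and 0 of its 8 genes were at 0 in any library. Endothelial markers summed to between 25.3 and 31.0, 18.8 and 36.1, 22.7 and 43.8, and 14.3 and 84.3 CPM in the same order. None of these 10 genes was at 0 in any library, 1 (Emcn) fell from E17.5 to P3 (-1.82, adjusted p = 0.0202, lost with column totals, with limma-voom and without E17.5 replicate 3 or P3 replicates 2 or 3), and in P10 replicate 1, with the lowest endothelial sum, Pcdh17 was at 5.22 CPM. The part of these cell types in the Pcdh17 result was not tested.

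**Figure D3:**
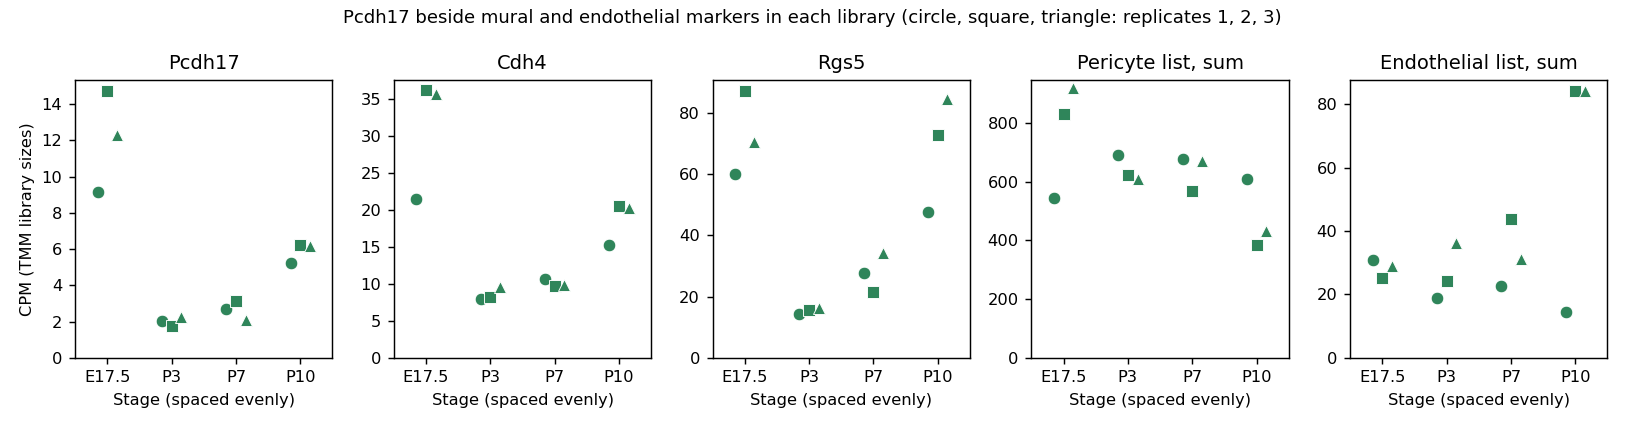
CPM in each library (linear axes from 0) of Pcdh17, Cdh4 and Rgs5, and the summed CPM of the 8 pericyte and vascular smooth muscle markers and the 10 endothelial markers, by stage. Pcdh17, Cdh4 and Rgs5 are high at E17.5, low at P3 and higher at P10, while the pericyte sum has its 2 lowest libraries at P10 and the endothelial sum its 2 highest. Rgs5 is the 1 gene of the 8 pericyte markers that was called higher from P7 to P10.

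The gene with the pattern most like that of Pcdh17 was Tcp11l2, and Cdh4 (R-cadherin), a classical cadherin, was next. Likeness was the root mean square difference of log2 CPM over the 12 libraries after centring each gene, among 6698 genes. It was 0.28 for Tcp11l2 and 0.30 for Cdh4, where Pcdh17 itself varied by 1.0 around its mean. Cdh4 was at 21.5, 36.2 and 35.7 CPM at E17.5, 7.98, 8.26 and 9.59 at P3, 10.7, 9.69 and 9.89 at P7, and 15.2, 20.5 and 20.3 at P10. Its P10 libraries lay above all P3 and P7 libraries and below all E17.5 libraries. Cdh4 was picked for its likeness over these same libraries, so its course restates that choice and is given as a description. Its fitted log2 values were -1.85 (SE 0.20) for P3 against E17.5 and 0.89 (SE 0.19) for P10 against P7. The call for P10 against P7 was lost in 9 of 23 alternatives, among them leaving out any 1 P7 library. Against E17.5, P10 was at -0.74, a call lost in 6 of 23 alternatives, with -0.20 under column totals.

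Pcdh7, a delta protocadherin also called BH-protocadherin, was higher at each later stage. It lies on chromosome 5, 57717967 to 58133230, plus strand, and overlaps 4932441J04Rik on the opposite strand, which reached at most 0.653 CPM. It was at 5.30, 7.59 and 8.24 CPM at E17.5 and 10.98, 10.8 and 8.98 at P3. At P7 it was at 14.1, 13.8 and 15.0 CPM and at P10 at 22.9, 16.7 and 24.8. No library of any stage overlapped a library of another stage. Compared with E17.5, P10 stood higher by 1.61 on the log2 scale (SE 0.19, adjusted p = 0.000247), a 3.04-fold rise that was called in every alternative run (1.43 to 2.13). The single steps were 0.54 (SE 0.19, adjusted p = 0.0597), 0.48 (SE 0.19, adjusted p = 0.286) and 0.59 (SE 0.18, adjusted p = 0.107), and none was called. The P3 step was called by limma-trend (0.55, adjusted p = 0.04996), when E17.5 replicate 3 was left out (0.70, adjusted p = 0.0394) and without P10 replicate 2 (0.54, adjusted p = 0.0415).

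Ddr2, a collagen-binding receptor tyrosine kinase, and Pam, an enzyme of peptide amidation, had the patterns most like Pcdh7, with differences of 0.15 and 0.16 where Pcdh7 varied by 0.62. Ddr2 averaged 69.9, 98.9, 140 and 194 CPM from E17.5 to P10 and Pam 116, 166, 235 and 379.

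The ratio of Pcdh7 to Pcdh17 was lower in the embryonic libraries than in the rest. The pair was taken for its courses in these same libraries, so the ratio restates that choice and is given as a description. It was 0.578, 0.517 and 0.669 in the 3 E17.5 libraries. It lay between 4.03 and 6.10 at P3, between 4.38 and 7.15 at P7 and between 2.69 and 4.39 at P10. The P10 ratios overlapped those of P3 and P7. Both genes being members of the delta group, the more abundant of the pair changed from Pcdh17 to Pcdh7 between E17.5 and P3. Of the 2 single changes between these stages, that of Pcdh17 was called and that of Pcdh7 was not (adjusted p = 0.0597).

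**Figure D4:**
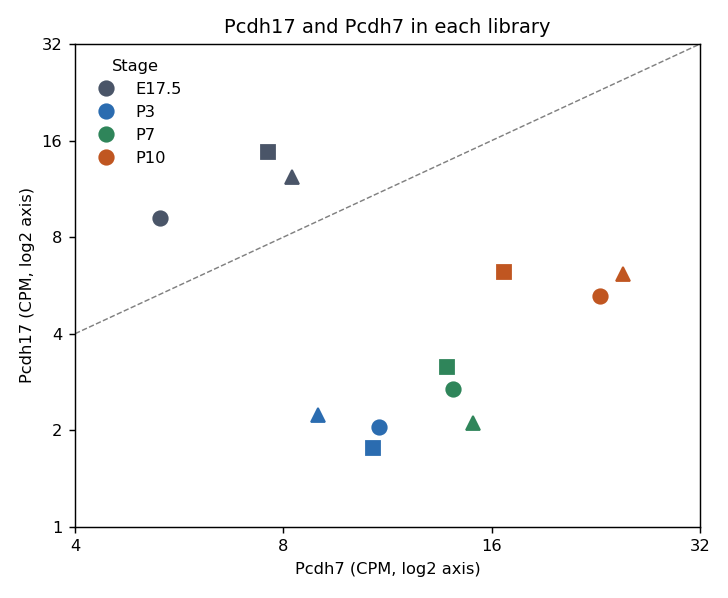
Pcdh17 against Pcdh7 in CPM, both on log2 axes, 1 point per library with colour for the stage and circles, squares and triangles for replicates 1, 2 and 3. The dashed line marks equal levels, with the 3 E17.5 libraries above it and the 9 postnatal libraries below it.

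Pcdh18 (chromosome 3, 49743296 to 49757325, minus strand), another delta protocadherin, had no called difference between stages. It was at 14.8, 12.3 and 21.2 CPM at E17.5, 17.46, 17.8 and 16.4 at P3, 14.5, 13.4 and 15.2 at P7, and 15.0, 11.8 and 10.6 at P10. E17.5 held both a library below all those of P3 and the highest of the 12 libraries, and its range overlapped every other stage. The log2 fold change between P10 and E17.5 was -0.37 (SE 0.19, adjusted p = 0.212). Uba2, an activating enzyme of SUMO conjugation, and Phactr4 were most like it, both with a difference of 0.13 where Pcdh18 varied by 0.26.

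Pcdh19 (chromosome X, 133582860 to 133688987, minus strand), whose protein can associate with N-cadherin, was close to the lower limit of the table. Its estimated counts were between 0 and 4 in each library, and its highest level was 0.209 CPM, in E17.5 replicate 3. It was listed at 0 in P3 replicate 1 and P10 replicate 1. No direction across stages was read from it.

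Cdh11 was the most abundant cadherin, and its E17.5 libraries were widely spread. It lies on chromosome 8, 102632095 to 102785642, minus strand. It was at 209, 74.3 and 98.3 CPM at E17.5 and at 193, 199 and 193 CPM at P3. At P7 it was at 156, 189 and 176 CPM and at P10 at 150, 145 and 145 CPM. After birth the stages did not overlap, with P3 highest and P10 lowest, but E17.5 replicate 1 lay above all 9 postnatal libraries and E17.5 replicates 2 and 3 below them. No comparison was called, and the log2 fold change between P3 and E17.5 was 0.62 (SE 0.29, adjusted p = 0.155). Without E17.5 replicate 1 it was 1.18 (adjusted p = 0.000379), and that between P10 and E17.5 went from 0.20 (SE 0.29, adjusted p = 0.684) to 0.76 (adjusted p = 0.00355). Whether Cdh11 passed the test across birth depended on 1 library. The steps after birth were small, -0.16 (SE 0.29, adjusted p = 0.845) from P3 to P7 and -0.25 (SE 0.29, adjusted p = 0.688) from P7 to P10. Mrps16, a mitochondrial ribosomal protein, and Gli2, a transcription factor of Hedgehog signalling, were most like it, with differences of 0.15 and 0.16 where Cdh11 varied by 0.43.

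Cdh2 (chromosome 18, 16588877 to 16809246, minus strand) was rare in these cells and lower at P10 than at E17.5. It was at 1.83, 0.779 and 0.835 CPM at E17.5, 0.546, 0.627 and 0.811 at P3, 0.399, 0.563 and 0.473 at P7, and 0.237, 0.259 and 0.458 at P10. These are between 4 and 27 estimated counts per library. Each stage overlapped the next, while P10 lay below all E17.5 and P3 libraries. The log2 fold change between P10 and E17.5 was -1.82 (SE 0.48, adjusted p = 0.0239). The call was lost when E17.5 replicate 1, the library with the highest value, was left out (-1.32, adjusted p = 0.116), likewise without P10 replicate 1 (-1.66, adjusted p = 0.0719) and without P10 replicate 2 (-1.70, adjusted p = 0.0877). Column totals, limma-voom, the replicate block and a fit on 6 libraries also lost it, with log2 fold changes between -1.83 and -1.30. Isoc1 and Igf2r, the receptor that clears insulin-like growth factor II, were most like it, with differences of 0.22 and 0.26 where Cdh2 varied by 0.63, and both were also highest in E17.5 replicate 1 (48.0 and 176 CPM).

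Cdh13 was rare as well and highest at the later stages. It lies on chromosome 8, 118283733 to 119324921, plus strand, a span of 1041 kb. It was at 0, 0.292 and 0.574 CPM at E17.5, 0.341, 0.627 and 0.946 at P3, 1.99, 0.958 and 1.21 at P7, and 1.25, 2.07 and 2.69 at P10. The P7 and P10 libraries all lay above those of E17.5 and P3 and overlapped each other. The log2 fold change between P10 and E17.5 was 2.72 (SE 0.80, adjusted p = 0.0377). Cdh13 was tested through the stages where it is high, with 0, 2, 3 and 3 of 3 libraries at the filter level from E17.5 to P10. Of 23 alternatives, 11 lost this call with adjusted p up to 0.121, among them leaving out E17.5 replicate 2 (2.70, adjusted p = 0.105), P10 replicate 2 (2.70, adjusted p = 0.0902) and P10 replicate 3 (2.45, adjusted p = 0.121), each of P3 replicates 1 and 2 and each of the 3 P7 libraries. P10 replicate 1, with 1.25 CPM, was also the P10 library with the lowest endothelial and epithelial sums. The part of these or other cells in the Cdh13 result was not tested. Palmd and Egfr, the epidermal growth factor receptor, were most like it, with differences of 0.55 and 0.57 where Cdh13 varied by 1.21.

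Fat1 was lower at P10 than at E17.5 by a moderate amount. It lies on chromosome 8, 44935447 to 45052257, plus strand, and overlaps Gm2366 on the opposite strand, which reached at most 1.07 CPM. It was at 55.0, 65.0 and 71.8 CPM at E17.5, 51.8, 63.2 and 60.7 at P3, 53.4, 50.5 and 53.9 at P7, and 49.5, 40.9 and 42.2 at P10. P10 lay below all libraries of the other stages, and the E17.5 and P3 libraries overlapped. The log2 fold change between P10 and E17.5 was -0.53 (SE 0.12, adjusted p = 0.0116). The call was lost with column totals as library sizes (-0.05, adjusted p = 0.907), with the 6 libraries compared (-0.53, adjusted p = 0.0635) and without P10 replicate 2 (-0.48, adjusted p = 0.0524) or P10 replicate 3 (-0.50, adjusted p = 0.0561). Ppp4c, a phosphatase subunit, and Vdac1, a mitochondrial channel, were most like it, each with a difference of 0.10 where Fat1 varied by 0.23.

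Among the other classical cadherins, 13 of 16 listed genes were in the table and 7 were tested; Cdh7, Cdh9 and Cdh19 were not analysed here. From E17.5 to P3, 2 rose (Cdh22 and Cdh24) and 3 fell (Cdh4, chosen above for its likeness to Pcdh17, Cdh6 and Cdh10), with a median log2 fold change of -0.72. Of all tested genes, 13.1% rose and 12% fell in that comparison. Cdh6 and Cdh10 passed the low-value filter through E17.5, with 2 and 0 of 3 libraries at it at P3, and Cdh22 through the postnatal stages, with 0 of 3 at E17.5. The P3 call of Cdh24 (0.88, adjusted p = 0.0223) was lost with column totals (1.03, adjusted p = 0.0738) and without E17.5 replicates 1 or 2 or P3 replicates 1 or 3 (adjusted p between 0.0552 and 0.0689). From P7 to P10 1 of the 7 rose (Cdh4) and 1 fell (Cdh24, -1.17, adjusted p = 0.0318, lost in 11 of 23 alternatives). Of all tested genes, 1.4% rose and 2.25% fell there. Between E17.5 and P10 0 rose and 3 fell (Cdh4, Cdh6 and Cdh10), where 8.79% and 9.5% of all tested genes did. Cdh6, a type II cadherin known from kidney development, averaged 3.11 ± 1.16 CPM at E17.5 and 0.680, 0.555 and 0.374 at P3, P7 and P10 (log2 fold change P3 vs E17.5 -2.18, SE 0.51, adjusted p = 0.0100). Cdh10 averaged 2.95 ± 1.95 CPM at E17.5 and at most 0.0190 at P3 and P7, and was listed at 0 in all 3 P10 libraries. Cdh22 averaged 0.492 ± 0.206 CPM at E17.5 and 1.94 ± 0.335 at P3 (1.98, SE 0.37, adjusted p = 0.00344). Its P7 and P10 libraries lay lower than those of P3, between 0.712 and 1.07 CPM. Cdh4, the most abundant of the list at E17.5 with 31.1 ± 8.32 CPM, stood above Cdh2 in every library.

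Cdh1 (E-cadherin), of epithelium, and Cdh5 (VE-cadherin), of endothelium, were not called in any comparison. Cdh1 averaged 1.996 ± 0.984, 1.22 ± 0.531, 0.944 ± 0.370 and 0.684 ± 0.338 CPM from E17.5 to P10. Cdh5 averaged 5.77 ± 1.38, 5.24 ± 2.98, 6.40 ± 2.41 and 11.9 ± 7.87 CPM. At P10 it was at 2.91, 17.4 and 15.5 CPM in replicates 1, 2 and 3, so these libraries differed more among themselves than the stage means did.

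**Figure D5:**
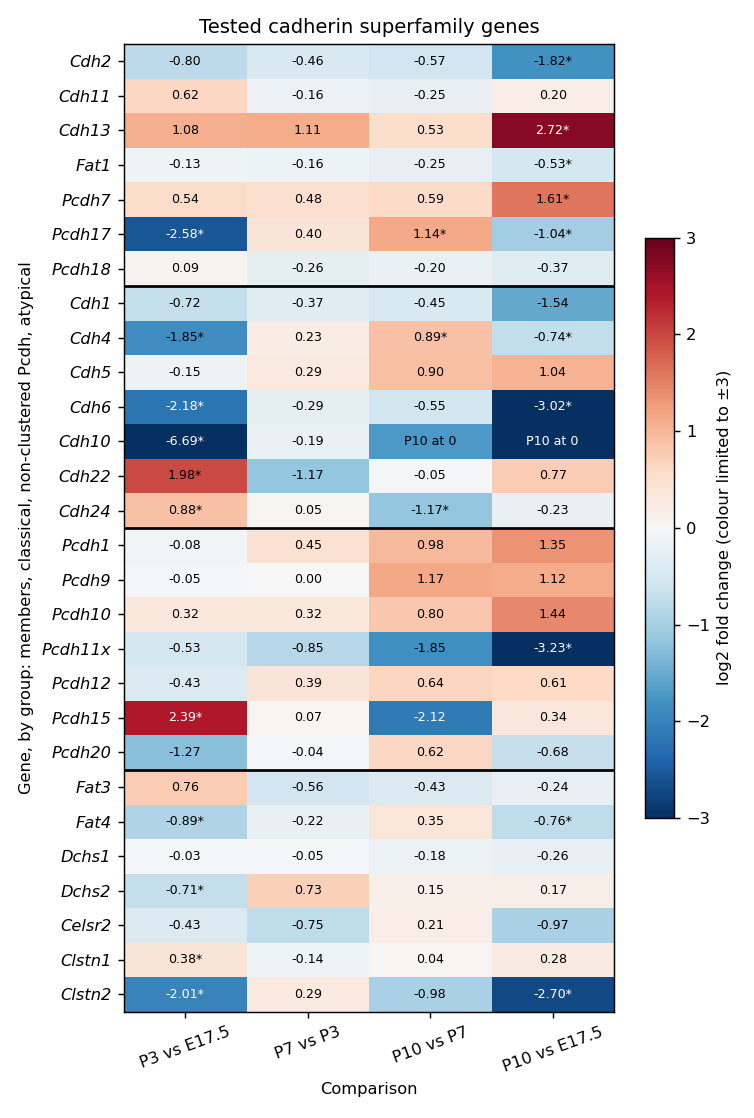
Fitted log2 fold change (colour and printed value) of the 7 tested members and the tested other classical cadherins, non-clustered protocadherins and atypical cadherins in 4 comparisons of stages, with an asterisk for an adjusted p below 0.05. The second block, of other classical cadherins, has 5 of 7 cells with an asterisk in P3 vs E17.5. Cells marked as 0 are coloured but print no value and no asterisk, because a stage was listed at 0 in all its libraries. Cdh10 in P10 vs E17.5 is such a cell and was called (adjusted p = 0.00197).

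Of the other non-clustered protocadherins, 7 of 8 were tested. Pcdh15, a protein of hair cell tip links, rose from E17.5 to P3, with 0.311 ± 0.253 CPM before and 1.72 ± 0.239 after (log2 value 2.39, SE 0.56, adjusted p = 0.0110). It passed the low-value filter through P3 and P7, with 3 of 3 libraries at the filter level at each of these stages and 0 of 3 at E17.5 and P10. At P10 it was at 0.408 ± 0.0490 CPM. Pcdh11x fell between E17.5 and P10, from 0.800 ± 0.200 to 0.0799 ± 0.0431 CPM (-3.23, SE 0.63, adjusted p = 0.00521, and -3.08, adjusted p = 0.0218, without E17.5 replicate 1). It passed through E17.5 and P3, with 1, 2, 0 and 0 of 3 libraries at the filter level from E17.5 to P10. No other gene of this list passed in these comparisons, and none of them averaged above 5.88 CPM at any stage, below Pcdh7 at all 4 stages. The clustered protocadherins, 44 tested of 55, summed to 220 ± 25.3, 193 ± 4.91, 211 ± 19.1 and 227 ± 7.49 CPM. From E17.5 to P3, 0 rose and 5 fell (median -0.37), and between E17.5 and P10 3 rose and 1 fell (median 0.11). Of all tested genes, 13.1% rose and 12% fell in the first comparison, and 8.79% rose and 9.5% fell in the second. Pcdhac2, Pcdhga2 and Pcdhga3 fell at P3 (log2 fold changes -1.55, -1.02 and -0.89), and Pcdhac2 was still lower at P10 (-1.90, adjusted p = 0.0149), while Pcdhb13 rose at P10 (1.20, adjusted p = 0.0415). Pcdhac2 was at 4.08, 1.65 and 1.20 CPM at E17.5, and without replicate 1 its values were -0.84 at P3 (adjusted p = 0.155) and -1.20 at P10 (adjusted p = 0.0662), neither called. Without that library the P3 calls of Pcdhga2 (-0.88, adjusted p = 0.0832) and Pcdhga3 (-0.81, adjusted p = 0.0523) were also lost, as all 3 were with column totals (adjusted p between 0.149 and 0.246). The P3 calls of Pcdhac2 and Pcdhga2 were lost without any 1 P3 library, that of Pcdhga2 also without E17.5 replicate 2, and that of Pcdhga3 without P3 replicate 2 or E17.5 replicate 3. The call of Pcdhb13, which had 1 of 3 E17.5 libraries at the filter level, was lost without any 1 library other than E17.5 replicate 1 and P3 replicate 3 (adjusted p up to 0.126). It was also lost with DESeq2, the replicate block, the fit on 6 libraries and no low-value filter (adjusted p between 0.0519 and 0.0804). The P10 call of Pcdhac2 was lost with column totals (-1.39, adjusted p = 0.0998), limma-voom and the fit on 6 libraries. These last 2 and the replicate block also lost its P3 call. Transcripts of the alpha and gamma clusters share constant exons, so the split of these values between their genes is uncertain.

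Among the other atypical cadherins, 7 of 16 were tested, and 1 rose and 3 fell from E17.5 to P3 (median -0.43). Of all tested genes, 13.1% rose and 12% fell between these stages. Fat4, the receptor of Dchs1, fell from 33.5 ± 5.25 to 18.01 ± 1.41 CPM at P3 (a log2 change of -0.89, SE 0.12, adjusted p = 0.000607) and was at 19.8 ± 0.493 CPM at P10 (-0.76 against E17.5, SE 0.12, adjusted p = 0.00159). With column totals neither value was called (-0.74, adjusted p = 0.0920, and -0.26, adjusted p = 0.464). Without E17.5 replicate 1 both were (-0.76, adjusted p = 0.00131, and -0.63, adjusted p = 0.00361). Between P3 and E17.5 Fat1 was at -0.13 (SE 0.12, adjusted p = 0.491), and at 0.03 with column totals. The difference between the 2 genes was not tested. Dchs2 fell to P3 (-0.71, adjusted p = 0.0477), as did Clstn2, a calsyntenin (-2.01, adjusted p = 0.0227), and Clstn1 rose (0.38, adjusted p = 0.0295). Clstn2, with 2, 1, 2 and 0 of 3 libraries at the filter level, was at 3.74, 0.876 and 1.51 CPM at E17.5, and without replicate 1 its value at P3 was -1.25 (adjusted p = 0.126). Without that library Clstn1 was at 0.29 (adjusted p = 0.0878). Both calls were lost with column totals and without P3 replicates 1 or 3 (adjusted p between 0.0626 and 0.166), and that of Dchs2 was lost in 18 of 23 alternatives, among them leaving out any 1 library other than E17.5 replicate 1 or P10 replicate 2 (-0.80 to -0.52).

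The catenins and linkers that attach cadherins to actin were abundant, with a summed level of 766 ± 22.6 CPM at E17.5 and 810 ± 21.5 at P10. Of 14 tested, 5 rose and 3 fell from E17.5 to P3 (median -0.16), 1 rose from P7 to P10, and 3 rose and 3 fell between E17.5 and P10 (median 0.13). Of all tested genes, 13.1% rose and 12% fell in the first comparison and 1.4% rose in the second. In the third, 8.79% rose and 9.5% fell. Limd1, a LIM protein of cell junctions that inhibits Hippo kinases, fell from 35.8 ± 9.51 to 16.3 ± 1.24 at P3 and 12.8 ± 0.222 at P10 (log2 fold change P10 vs E17.5 -1.49, SE 0.17, adjusted p = 0.000171). Without E17.5 replicate 1, where it was at 46.8 CPM against 31.2 and 29.5, the P10 value was -1.25 (adjusted p = 0.000108). Ctnnal1, an alpha-catenin-like protein, rose from 10.6 ± 1.92 to 32.03 ± 10.9 CPM at P10 (1.59, SE 0.26, adjusted p = 0.00179). Pkp4, a catenin of the p120 family, rose from 8.26 ± 1.72 to 17.1 ± 0.969 CPM (1.04, SE 0.15, adjusted p = 0.000794), and Ctnnd2, delta-catenin, fell from 1.86 ± 0.779 to 0.196 ± 0.0555 CPM (-3.20, SE 0.47, adjusted p = 0.000961). Ctnnd2 passed the low-value filter through E17.5 and P3, with 0 of 3 libraries at it at P7 and P10, and without E17.5 replicate 1 it was at -2.82 (adjusted p = 0.00507).

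Of the 9 genes of the WAVE complex, 1, Wasf1, rose from E17.5 to P3 (3.42 ± 0.415 and 5.94 ± 0.499 CPM, log2 change of 0.80, SE 0.18, adjusted p = 0.00812), while the list summed to 340 ± 8.51 and 306 ± 14.7 CPM at these stages. Of all tested genes, 13.1% rose between them. Of 11 tested Fat and planar polarity partners, 5 were called from E17.5 to P3, beside 25.1% of all tested genes; Vangl1 and Evl rose and Prickle1, Prickle2 and Vasp fell (median 0.22). Between E17.5 and P10, 2 fell, beside 18.3% called of all tested genes (median 0.02). Those 2 were Prickle1, a core planar polarity protein (19.03 ± 2.09 to 4.85 ± 1.38 CPM, -1.97, SE 0.21, adjusted p = 0.000140), and Fjx1, the kinase-related four-jointed homologue (12.4 ± 2.47 to 5.56 ± 0.723 CPM, -1.15, SE 0.21, adjusted p = 0.00354). Vangl1, another core planar polarity protein, rose from E17.5 to P3 (1.07, SE 0.31, adjusted p = 0.0302), and Vasp, an actin-elongation protein of the Ena/VASP family, fell (-0.60, SE 0.16, adjusted p = 0.0185). The call of Vangl1 was lost without E17.5 replicates 2 or 3 or P3 replicates 1 or 2 (0.82 to 1.13, adjusted p between 0.0592 and 0.115), that of Vasp without E17.5 replicate 2 or P3 replicates 1 or 2 (-0.56 to -0.46, adjusted p between 0.0667 and 0.0907), and that of Prickle2 (-0.32) without E17.5 replicate 2, any P3 library or P7 replicate 2 (adjusted p between 0.0517 and 0.117). With column totals the P3 calls of Vangl1, Vasp, Evl and Prickle2 (adjusted p between 0.0999 and 0.802) and the P10 call of Fjx1 (-0.65, adjusted p = 0.102) were lost.

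For Cdh13, the adiponectin axis was measured alongside. Adipoq itself was at most 0.210 CPM and was listed at 0 in 10 of 12 libraries. Adipor1 averaged between 37.5 and 47.6 CPM over the stages. Adipor2 fell from 21.4 ± 0.821 CPM at E17.5 to 14.3 ± 0.460 at P10 (a log2 change of -0.58, SE 0.10, adjusted p = 0.00216), a call lost with column totals (-0.07, adjusted p = 0.861). Among 9 genes of cadherin shedding and processing, 2 rose between E17.5 and P10, both proprotein convertases, the enzymes that remove cadherin propeptides. Of all tested genes, 8.79% rose between these stages. Pcsk6 averaged 0.967 ± 0.449, 2.34 ± 0.317, 6.66 ± 1.77 and 18.7 ± 7.83 CPM (4.25, SE 0.43, adjusted p = 9.98e-05), and Furin 54.8 ± 7.38 CPM at E17.5 and 74.6 ± 2.92 at P10 (0.44, SE 0.12, adjusted p = 0.0268). Pcsk6 had 2 of 3 libraries at the filter level at E17.5 and 3 of 3 afterwards, and the call of Furin was lost without E17.5 replicates 1 or 3 or any 1 P10 library (adjusted p between 0.0556 and 0.0872).

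Genes that mark the sorted mesenchyme changed between the stages too. Of the 10 mesenchyme and reporter markers, 4 rose and 2 fell from E17.5 to P3, and 3 rose and 2 fell between E17.5 and P10, beside 25.1% and 18.3% called of all tested genes. Acta2 (1.06, adjusted p = 0.0183) and Tagln (1.28, adjusted p = 0.00481), both of the contractile apparatus, rose from E17.5 to P3, and Pdgfra (-0.95, adjusted p = 0.00430) and Col1a2 (-0.49, adjusted p = 0.0120) fell. Vim, an intermediate filament protein, averaged 623 ± 148 CPM at E17.5 and 1758 ± 290 at P3 (1.496, adjusted p = 0.000345), and Col1a1, a collagen chain, 478 ± 57.7 and 712 ± 23.5 (0.58, adjusted p = 0.00889). Vim (1.23, adjusted p = 0.00111) and Col1a1 (0.91, adjusted p = 0.000859) were also higher at P10 than at E17.5. Pdgfrb, the other receptor of platelet-derived growth factors, rose from 31.7 ± 9.20 CPM at E17.5 to 84.4 ± 1.13 at P10 (1.41, adjusted p = 0.000681). Tcf21, a transcription factor of lung fibroblasts, fell from 183 ± 152 to 15.6 ± 4.38 CPM (-3.55, adjusted p = 0.00239), and at E17.5 it was at 359, 96.2 and 93.6 CPM, highest in replicate 1, without which the value was -2.61 (adjusted p = 0.000646). Pdgfra fell between E17.5 and P10 (-0.65, adjusted p = 0.0347), a call lost in 10 of 23 alternatives, among them column totals (-0.10), each P10 library left out, and E17.5 replicates 2 or 3, P3 replicate 2 or P7 replicate 1 left out (adjusted p between 0.0510 and 0.117 over these libraries). The P3 call of Acta2 was lost without E17.5 replicates 1 or 2 or P3 replicate 3 (adjusted p between 0.0506 and 0.0756), that of Col1a2 without E17.5 replicate 2, and those of Pdgfra, Col1a1 and Col1a2 with column totals. None of the 10 was at 0 in any library, and their sum lay between 4380 and 5295 CPM at E17.5, 6910.4 and 7695 at P3, 6584 and 7523 at P7, and 5439 and 7042 at P10. The part of these changes in the members' results was not tested.

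For the other marker lists, the counts were as follows, from E17.5 to P3 where no comparison is named. Of all tested genes, 13.1% rose and 12% fell from E17.5 to P3. From P7 to P10 2.25% fell, and between E17.5 and P10 8.79% rose. Proliferation markers rose in 7 of 7 genes from E17.5 to P3 and fell in 7 of 7 from P7 to P10, with summed levels of 136, 439, 393 and 155 CPM. Erythroid markers fell in 4 of 5 tested genes across birth, with sums between 117 and 179 CPM at E17.5 and between 31.8 and 53.6 at P3. Mesothelial markers fell in 2 of 3 tested genes, from sums between 11.4 and 19.2 CPM to between 2.52 and 4.66, with Wt1 and Lrrn4 at 0 in 9 of 12 libraries. Immune markers rose in 2 of 7 (sums of at most 26.4 CPM), and of 10 tested epithelial markers 1 rose and 1 fell, with sums between 60.3 and 285 CPM over all libraries. Of the neural and glial markers, S100b was tested and rose between E17.5 and P10, with list sums of at most 21.8 CPM. The part of these cells and of the cell cycle in the members' changes was not tested.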

How the data were processed

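RNA from sorted Acta2-dsRed+, Pdgfra-GFP+ lung cells was sequenced as stranded low-input total RNA libraries, per the labels' protocols. The authors deposited estimated counts per gene as whole numbers, with a scaling by length read from the values; the 5th percentile of values above 0 was 37.0 for genes with transcripts up to 120 nt and 1 for those over 800 nt. The build was GRCm38, per the submitters' processing notes; the aligner, quantifier, annotation and use of strand were not given in the sources used here. Positions are from GENCODE M21, which held 25847 of 28004 symbols (92.3%).

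Libraries were grouped by their stage label. The estimated counts were fitted with edgeR 4.0.16 (R 4.3.3, limma 3.58.1) in 1 model over 12 libraries with stage as the only term, TMM factors, the filter on low counts by stage (minimum count 10), robust quasi-likelihood tests and Benjamini-Hochberg adjustment over 16827 genes. The script was run on counts simulated with the spread of its own fit. That run is a check of the code and not of how well the model suits these libraries. Depth limits the genes near 1 CPM most. Alternatives were 3 other scalings (RLE, upper quartile, column totals), short structural RNA genes left out, 2 other filters, DESeq2 1.42.0, limma-voom, limma-trend, 6 libraries alone, a replicate block, and each library left out. Where a fit leaves 2 libraries in a stage, the spread is shared with the other stages.

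The members and the 9 family and 9 marker lists were chosen with earlier results of these data known. Named genes were the 8 members, Cdh1, Cdh5, Acta2, Pdgfra, up to 4 genes per list that passed with the largest log2 fold change, and per member the 2 genes of most alike pattern, with a mean of at least 10 CPM and no predicted models. For the called list genes the same alternatives were read, an addition made after seeing the data. Other genes named with a list of 5 calls or fewer, and markers, were chosen after their values were seen.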

Additional observations from a re-analysis of the deposited data

How the results depend on the processing

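Called log2 fold changes of single genes kept their direction in all alternatives. Of 791 comparisons of a member's result with an alternative, 723 kept their side of the threshold, 57 lost a call, 11 gained one and 0 called values reversed. The 791 include results that were not called in the main fit and so could not lose a call. All 57 losses were among the called ones. Results for any stage difference have no direction. For the 63 called results of named list genes, read after seeing the data, 177 of 1442 comparisons lost the call, over 33 of the results, and 0 reversed. With column totals as library sizes the median log2 fold change of all genes moved by 0.16 (P3 vs E17.5), 0.29 (P7 vs P3), 0.05 (P10 vs P7) and, in P10 vs E17.5, 0.50, and the share of calls that were higher went from 52.1% to 70.6% in P3 vs E17.5 and from 48.1% to 83.3% in P10 vs E17.5. Changes in the text are relative to the median of TMM-scaled genes. Column totals gave 0 members in P10 vs P7 and 2 in P10 vs E17.5, and 1499, 6, 7 and 2623 genes for these comparisons in the order P3 vs E17.5, P7 vs P3, P10 vs P7 and any stage. Upper quartile factors gave 2 members for any stage difference, 4 genes for P7 vs P3 and 58.0% higher calls in P10 vs E17.5. Without a filter there were 2 members for any stage, 3 genes for P7 vs P3 and 307 for P10 vs P7; a stricter filter gave 3 genes for P7 vs P3 and leaving out short structural RNA genes 2. DESeq2 gave 476 genes for P7 vs P3 and 1346 for P10 vs P7. Limma-voom gave 18 genes for P7 vs P3 and 3 members for P10 vs E17.5, and limma-trend 21 genes for P7 vs P3 and 2 members for P3 vs E17.5. The fit on 6 libraries gave 2767, 9 and 1687 genes for P3 vs E17.5, P7 vs P3 and P10 vs E17.5, and 2 members for the last. The causes were not tested.

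Leaving out 1 library gave between 1 and 2 members and 2968 and 4305 genes for P3 vs E17.5, 0 and 73 genes for P7 vs P3, 0 and 1 members and 22 and 790 genes for P10 vs P7, 2 and 5 members and 2016 and 3113 genes for P10 vs E17.5, and 2 and 5 members and 4096 and 5413 genes for any stage. Replicate numbers did not pair libraries: correlations of same-numbered libraries lay between -0.19 and 0.14, with 3 of 18 over 0.1, and 3 of 12 libraries were nearest to their own number. With the replicate block, 1, 0, 1, 4 and 2 members were called in the 4 comparisons of stages, in the order above, and for any stage, and 3686, 0, 310, 2590 and 4395 genes.

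Across any stage, the call of Cdh2 (adjusted p = 0.0489) was lost in 19 alternatives and that of Fat1 (0.0271) in 9. Cdh13 (0.0694) was called with column totals (0.0430), DESeq2 (0.00973), limma-trend (0.0218), without E17.5 replicate 1 (0.0403) and without E17.5 replicate 3 (0.0449). Cdh11 (0.333) was called without E17.5 replicate 1 (0.00107). Low values of Cdh2, Cdh13 and Pcdh19 limit what 3 libraries per stage can show.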
